A study of Homo sapiens with 12 samples.

Results

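The comparison described here is between BET inhibitor-resistant and parental MDA-MB-231 cells within the RNA pulled down by an antibody against IGF2BP2. MDA-MB-231 is an established triple-negative breast cancer cell line. The parental cells (Sens) carry the genotype label WT and had no treatment. Their derivative (Res) is labelled as having established resistance to BET inhibitors and was kept under a BET inhibitor, which the labels do not name, until harvest. Resistance and ongoing exposure to the compound therefore cannot be told apart. Each line gave 3 libraries with the anti-IGF2BP2 monoclonal antibody, so 6 of the 12 libraries of the series entered this comparison. The other 6 were precipitated with normal rabbit IgG and serve here as background. No label says that replicates came from separate cultures, so the p-values measure the spread between these libraries, which may be technical.

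The file lists 6384 circRNAs, of which 5816 had a count in at least 1 of the 6 pulldown libraries. A circRNA was tested if it had at least 2 counts in at least 3 of the 6. This left 608, and 5208 with some count were too sparse to test. Only circRNA and spike-in rows were analysed here, so the identity of the cells could not be checked against mRNA markers, and IGF2BP2 itself was not measured. No library of unprecipitated RNA was analysed either. A change in the pulldown can thus be a change in association with IGF2BP2 or a change in how much of that circRNA the cells hold, and these cannot be told apart.

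Circular RNAs form when a downstream splice donor is joined to an upstream acceptor, which closes an exon or a run of exons into a ring without free ends. They resist exonucleases and are long-lived, and some bind proteins or microRNAs. IGF2BP2 belongs to a family of RNA-binding proteins with KH and RRM domains that read N6-methyladenosine and affect the stability and translation of bound transcripts. BET proteins bind acetylated chromatin and support transcription of growth genes, and tumour cells kept under BET inhibitors can lose their sensitivity to them. The question of the design is which circRNAs lose association with IGF2BP2 once resistance is established.

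The pulldown of Res cells was less dominated by a few circRNAs than that of Sens cells. The 10 most counted circRNAs of each library held 25.0%, 25.4% and 24.6% of its circRNA counts in Sens replicates 1 to 3. They held 13.8%, 13.2% and 14.3% in Res. The groups did not overlap (means 25.0% ± 0.382 and 13.8% ± 0.545, SD, n = 3 each; two-sided exact permutation p = 0.1, the smallest that 3 against 3 libraries can give, 0.2 after adjustment over 4 library measures). Most of that gap belonged to 1 circRNA. With hsa_circ_0001573 left out, the shares were 16.0% ± 0.519 and 13.8% ± 0.548 (n = 3 each), still without overlap.

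Depth was low and uneven. The libraries held 4448 to 5561 circRNA counts in Sens and 5179 to 8662 in Res, with Res replicate 2 the deepest (exact permutation p = 0.2 for the difference, 0.2 after adjustment). Thinned to 4448 counts each in a single random draw, Sens libraries showed 1649, 1607 and 1591 different circRNAs and Res libraries 1766, 1834 and 1682. These do not overlap (exact permutation p = 0.1, the smallest possible). The thinning kept hsa_circ_0001573, which took 11.7% of Sens counts and 0.102% of Res counts. Fewer of the 4448 counts were therefore left for the remaining circRNAs in Sens, so depth was not equal for them. Without thinning, all 3 Res libraries and no Sens library detected 104 circRNAs, while 28 had the reverse pattern. In the thinned counts these became 63 and 34, with the same limit. Their counts were small, with a median of 5 and of 4 over the 6 libraries before thinning. Most were too sparse for the test described next, and only 20 circRNAs without a count in 1 of the lines entered it. Of these 20, 2 were called higher and 3 lower in Res, beside 4.77% called among all tested. They passed the filter only through the line that has counts, so these shares cannot be compared. Where a circRNA had no count in a pulldown library, its share there could still be as high as 0.0346% to 0.0674%, the share of 3 counts. No label mentions molecular identifiers, so 1 molecule may have been counted more than once. These limits and the intervals of count ratios treat every count as independent and leave out the spread between libraries, so they may be too narrow.

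Of the 608 tested circRNAs, 29 differed between the lines, 17 higher and 12 lower in Res (edgeR quasi-likelihood test on the counts, Benjamini-Hochberg adjusted p under 0.05). That is 4.77% of those tested, 2.8% higher and 1.97% lower. All 29 had values that did not overlap between the groups, against 139 of the 608 (22.9%; 15.1% higher and 7.73% lower in Res). Levels are given as CPM, the count divided by the library's circRNA counts after TMM scaling and given per 1000000. Log2 fold changes are Res over Sens, with positive values higher in Res.

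**Figure D1:**
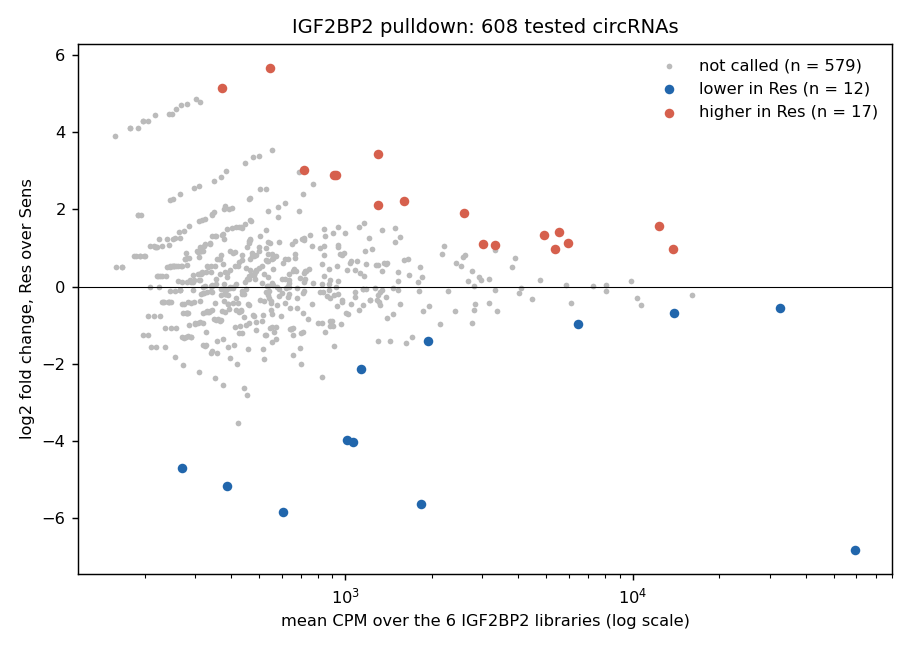
Each point is 1 of 608 tested circRNAs, with its mean CPM over the 6 pulldown libraries on a log scale (x axis) and its log2 fold change, Res over Sens (y axis). The 17 circRNAs called higher and the 12 called lower are coloured, and 23 of these 29 lie among the 152 circRNAs with the highest mean CPM.

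Most calls were among the circRNAs with high levels. With the 608 split by mean CPM into 4 bins of 152, the top bin (848.3 to 59560 CPM) held 14 higher and 9 lower calls, 15.1% of its members. The next bin held 2 higher and 1 lower, the one after it 1 and 1, and the bottom bin 0 and 1. The median standard error (SE) of the log2 fold change was 0.48 in the top bin and 1.07 in the bottom bin. The smallest change called was 0.57 in size in the top bin and, going down, 3.02, 5.15 and 4.70 in the others.

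The 12 circRNAs lower in Res ranged from near loss to reductions of less than a factor of 2. hsa_circ_0001573 stood far apart from the others. It had 650, 556 and 518 counts in Sens replicates 1 to 3 and 7, 7 and 6 in Res, and went from rank 1 to rank 128 by mean share of counts. Its level fell from 118074 ± 6433 CPM to 1046 ± 187 CPM (SD, n = 3 each), 113-fold lower (log2 fold change -6.82, SE 0.22, edgeR adjusted p = 1.25e-18). In Sens it alone made up 11.7% of all circRNA counts, and in Res 0.102%.

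Another 3 circRNAs went from a moderate level in every Sens library to at most 2 counts over all Res libraries. hsa_circ_0060927 had 21, 13 and 19 counts in Sens and 0, 0 and 1 in Res. By summed counts this is a ratio of 71.5 (exact 95% interval 12.3 to 2875; edgeR adjusted p = 3.4e-06). It was the 24th most counted circRNA of the Sens pulldown. hsa_circ_0003692 had 9, 9 and 10 counts in Sens and 1, 1 and 0 in Res, a ratio of 18.9 (95% interval 4.76 to 164; edgeR adjusted p = 0.00163). hsa_circ_0000591 had 17, 6 and 7 counts in Sens and 0, 0 and 2 in Res, a ratio of 20.2 (95% interval 5.13 to 175; edgeR adjusted p = 0.00363). Its Sens libraries spread more widely than those of hsa_circ_0003692.

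In 3 of the lower circRNAs no Res library had a count. hsa_circ_0004544 had 9, 6 and 3 counts in Sens. It was 8.09-fold lower in Res when 3 counts over the Res group are taken as the upper limit (edgeR adjusted p = 0.00591). Such folds leave out the counting error of the group that has counts, so they are not strict lower bounds. hsa_circ_0000660 had 2, 5 and 4 counts and was 4.94-fold lower by this measure (edgeR adjusted p = 0.03). hsa_circ_0030586 had 4, 2 and 2 counts and was 3.60-fold lower by it (edgeR adjusted p = 0.0462). These last calls rest on 11 and 8 counts in all, and the call for hsa_circ_0030586 was lost whichever of the 6 libraries was left out, with adjusted p-values over all alternatives from 0.0343 to 0.551.

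The remaining 5 were still present in every Res library. Host genes are named below only as part of a circRNA's published name, as background, since the file pairs no identifier with a gene. hsa_circ_0006156, published as circFNDC3B after a gene for a fibronectin type III domain protein, was the most counted circRNA of the Res pulldown and the second of the Sens pulldown. It had 40754, 33870 and 42296 CPM in Sens and 25593, 28116 and 25154 CPM in Res, 1.48-fold lower (log2 fold change -0.57, SE 0.16, edgeR adjusted p = 0.0325). hsa_circ_0001756 had 18405, 19885 and 13458 CPM in Sens and 10339, 10841 and 10807 CPM in Res, 1.62-fold lower (log2 fold change -0.69, SE 0.19, adjusted p = 0.0307). The 3 Res libraries of hsa_circ_0001756 lay much closer together than its Sens libraries.

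hsa_circ_0000826 was 1.98-fold lower, at 8567 ± 2134 CPM in Sens and 4333 ± 537 CPM in Res (n = 3 each, edgeR adjusted p = 0.0169). hsa_circ_0071106 was 2.79-fold lower (log2 fold change -1.42, SE 0.40, edgeR adjusted p = 0.0383), and hsa_circ_0000831 was 4.81-fold lower (log2 fold change -2.15, SE 0.58, edgeR adjusted p = 0.0307). None of these 5 passed the test when libraries were scaled to the spike-in transcripts. The log2 fold changes on that scale were -0.056 (adjusted p = 0.911) for circFNDC3B, -0.15 (adjusted p = 0.78) for hsa_circ_0001756, -0.45 (adjusted p = 0.405) for hsa_circ_0000826, -0.90 (adjusted p = 0.247) for hsa_circ_0071106 and -1.67 (adjusted p = 0.107) for hsa_circ_0000831.

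**Figure D2:**
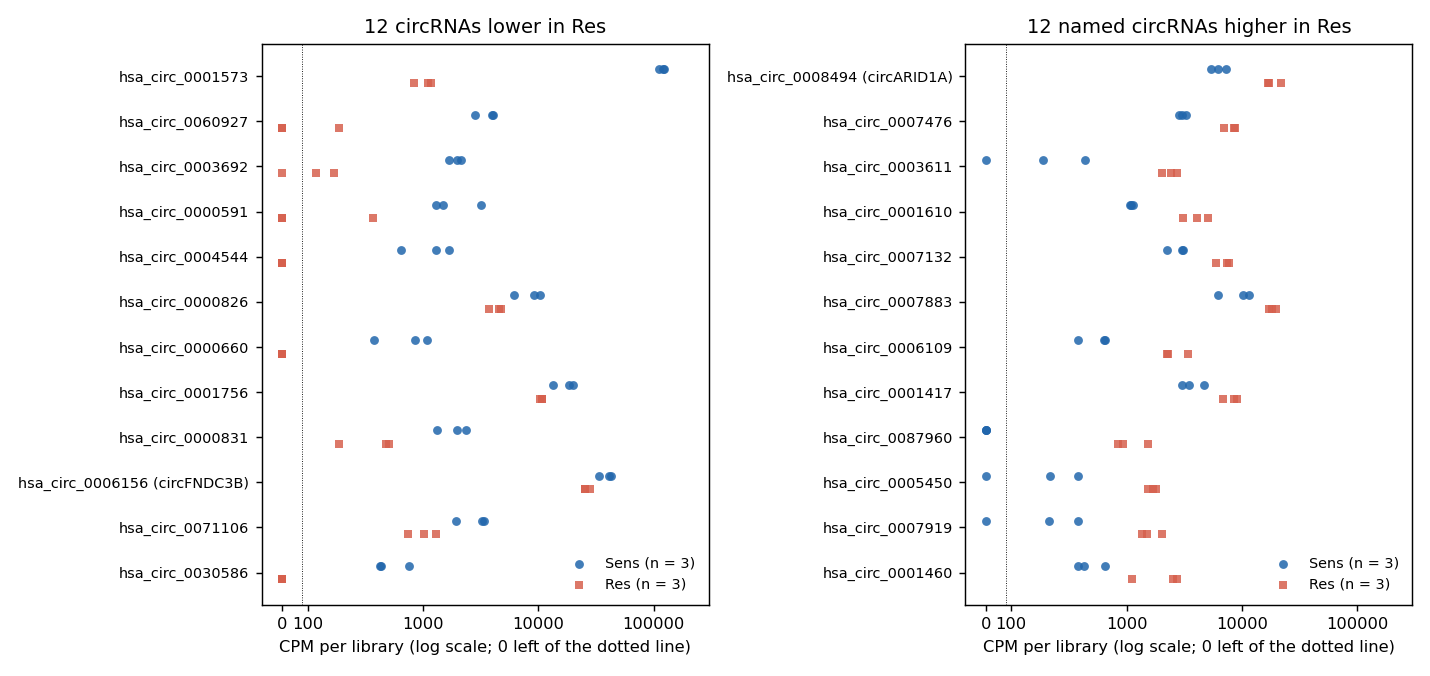
CPM of single libraries on a log scale (x axis; counts of 0 are drawn left of the dotted line) for the 12 circRNAs lower in Res and 12 of the 17 higher, ordered by p from the top. Circles are the 3 Sens libraries and squares the 3 Res libraries, and the groups do not overlap in any of the 24.

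Of the 17 circRNAs higher in Res, 11 had more than 3 summed counts in the Sens pulldown, and these rose 1.97- to 4.72-fold. hsa_circ_0008494, published as circARID1A after the gene of a SWI/SNF chromatin remodelling subunit, had 33, 33 and 25 counts in Sens and 128, 140 and 92 in Res. Its level rose from 6250 ± 936 CPM to 18505 ± 2772 CPM (n = 3 each), 2.96-fold (log2 fold change 1.56, SE 0.20, edgeR adjusted p = 9.68e-06). It moved from rank 14 to rank 2 by share of counts. hsa_circ_0007883, the other highly counted circRNA of this set, had 11456, 10270 and 6195 CPM in Sens and 17288, 19776 and 18074 CPM in Res. It rose 1.97-fold (log2 fold change 0.98, SE 0.20, edgeR adjusted p = 0.00378), and moved from rank 8 to rank 3.

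A group of 3 circRNAs with similar levels rose by similar factors. hsa_circ_0007476 had 2817, 3278 and 2991 CPM in Sens and 8474, 7029 and 8757 CPM in Res, 2.67-fold higher (log2 fold change 1.40, SE 0.25, edgeR adjusted p = 0.00115). hsa_circ_0007132 was 2.54-fold higher (log2 fold change 1.33, SE 0.27, edgeR adjusted p = 0.00266). hsa_circ_0001417 was 2.19-fold higher (log2 fold change 1.13, SE 0.25, edgeR adjusted p = 0.00591). None had a Res library below 5957 CPM or a Sens library above 4700 CPM.

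From lower starting levels, hsa_circ_0001610 rose 3.73-fold, from 1096 ± 29.5 CPM to 4091 ± 1036 CPM (n = 3 each, edgeR adjusted p = 0.00163). hsa_circ_0006109 had 2, 3 and 3 counts in Sens and 20, 19 and 12 in Res, 4.72-fold higher (log2 fold change 2.20, SE 0.48, edgeR adjusted p = 0.00591). hsa_circ_0001460 had 2, 3 and 2 counts in Sens and 16, 21 and 6 in Res, 4.34-fold higher (log2 fold change 2.11, SE 0.55, edgeR adjusted p = 0.0242). The Res libraries of hsa_circ_0001460 were uneven, since replicate 3 stood at 1118 CPM against 2712 and 2502 CPM in replicates 1 and 2.

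Others rose from at most 3 counts over the Sens libraries. hsa_circ_0003611 had 1, 2 and 0 counts in Sens and 12, 23 and 13 in Res, a ratio of 11.9 (exact 95% interval 3.82 to 59.6; edgeR adjusted p = 0.00163). hsa_circ_0005450 and hsa_circ_0007919 each went from 3 counts to 33, a ratio of 8.16 (95% interval 2.56 to 41.6; edgeR adjusted p = 0.0169 and 0.0186). hsa_circ_0087960 had no count in Sens and 9, 7 and 5 in Res. It was 5.19-fold higher when 3 counts over the Sens group are taken as the upper limit (edgeR adjusted p = 0.0168). These 4 reached ranks of 46, 69, 73 and 119 in the Res pulldown, so none was among its leading circRNAs.

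The other 5 circRNAs higher in Res had adjusted p-values between 0.0287 and 0.048 in the edgeR test. Among them, hsa_circ_0004496 had no Sens count and 15 Res counts (3.71-fold against 3 counts over the Sens group), and hsa_circ_0070467 had 2 and 24 counts. By mean CPM, hsa_circ_0001847, hsa_circ_0000418 and hsa_circ_0006117 were 1.98-fold, 2.09-fold and 2.21-fold higher. The call for hsa_circ_0006117 was lost whichever library was left out (adjusted p over all alternatives from 0.00674 to 0.276).

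Leaving out single libraries changed the number of calls. Without Sens replicates 1, 2 and 3 there were 8, 13 and 19, and without Res replicates 1, 2 and 3 there were 9, 25 and 30. The 7 circRNAs that passed under every alternative in which they were tested were hsa_circ_0001573, hsa_circ_0060927 and hsa_circ_0003692, which fell, and circARID1A, hsa_circ_0007476, hsa_circ_0003611 and hsa_circ_0001610, which rose. No alternative turned the direction of any of the 29.

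Among the lower circRNAs, Sens replicate 1 and Res replicate 1 each decided the calls of the other 9, hsa_circ_0030586 among them (adjusted p = 0.187 and 0.183). The edgeR adjusted p without Sens replicate 1 and without Res replicate 1 was 0.143 and 0.152 for hsa_circ_0000591, 0.0702 and 0.131 for hsa_circ_0004544, 0.187 and 0.136 for hsa_circ_0000826, and 0.0633 and 0.183 for hsa_circ_0000660. It was 0.187 and 0.177 for hsa_circ_0001756, 0.0702 and 0.152 for hsa_circ_0000831, 0.187 and 0.213 for circFNDC3B, and 0.232 and 0.183 for hsa_circ_0071106. Other libraries also ended calls. Without Sens replicate 2 the adjusted p was 0.0764 for hsa_circ_0000826, 0.139 for hsa_circ_0000660, 0.109 for hsa_circ_0001756, 0.114 for hsa_circ_0000831 and 0.179 for hsa_circ_0071106. Without Sens replicate 3 it was 0.0675 for hsa_circ_0000660 and 0.173 for hsa_circ_0000831, and without Res replicate 2 it was 0.0821 for hsa_circ_0000660. Without Res replicate 3 it was 0.0723 for hsa_circ_0001756, 0.206 for circFNDC3B and 0.0547 for hsa_circ_0071106.

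Among the higher circRNAs, hsa_circ_0007132 lost its call only without Sens replicate 1 (edgeR adjusted p = 0.0633) and hsa_circ_0007883 only without Res replicate 1 (adjusted p = 0.0685). hsa_circ_0006109 lost it without Sens replicate 1 or Res replicate 1 (adjusted p = 0.0727 and 0.0907), and hsa_circ_0001417 without Sens replicate 1 or 2 (adjusted p = 0.0975 and 0.0749). hsa_circ_0087960 lost it without Sens replicate 1, Sens replicate 2 or Res replicate 1 (adjusted p = 0.0833, 0.0667 and 0.168). hsa_circ_0005450 kept it only without Res replicate 2 or 3, and hsa_circ_0007919 and hsa_circ_0001460 only without Res replicate 3. Their highest adjusted p-values with a library left out were 0.131, 0.131 and 0.183, the first and second of these without Res replicate 1 and the last without Sens replicate 1. Of the 5 with the weakest evidence, hsa_circ_0001847 kept its call without Res replicate 2 or 3, hsa_circ_0000418 and hsa_circ_0004496 without Res replicate 3, and hsa_circ_0070467 without Res replicate 2. The highest adjusted p-values were 0.187 for hsa_circ_0001847 and 0.184 for hsa_circ_0000418, both without Sens replicate 1, and 0.213 for hsa_circ_0004496 and hsa_circ_0070467, both without Res replicate 1.

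The balance of higher and lower calls depended on the scale. The labels place the addition of spike-in transcripts after RNA purification, at a fixed mass of RNA. Scaled to spike-in totals, 43 circRNAs were higher and 6 lower in Res, and 23 of the 29 calls were among these 49. That scale moved the median log2 fold change of all 608 from 0.16 to 0.66. With no scaling there were 11 higher and 3 lower. With column totals that left out hsa_circ_0001573 there were 12 higher and 15 lower, and DESeq2 with its own size factors called 9 higher and 10 lower. Per 1000 spike-in counts, circARID1A rose from 46.4 ± 2.90 to 195.8 ± 11.6 counts and hsa_circ_0007883 from 68.1 ± 12.6 to 199.5 ± 47.6 (n = 3 each), so these 2 were higher with either scaling (edgeR with spike-in totals, adjusted p = 1.06e-06 and 0.00017). circFNDC3B stood at 295.9 ± 73.2 and 284.3 ± 61.8 (n = 3 each), a gap smaller than the spread between replicates.

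Of the 10 with the highest mean CPM over the 6 libraries, 3 were called lower (hsa_circ_0001573, circFNDC3B and hsa_circ_0001756) and 2 higher (circARID1A and hsa_circ_0007883). hsa_circ_0021570 had 16527, 19230 and 16021 CPM in Sens and 16101, 12271 and 16210 CPM in Res, with a log2 fold change of -0.22 (95% interval -0.60 to 0.15). hsa_circ_0000745 had a log2 fold change of -0.12 (95% interval -0.56 to 0.32). hsa_circ_0001359 had -0.30 (95% interval -0.73 to 0.14) and hsa_circ_0000711 0.14 (95% interval -0.31 to 0.59). For these 4, on the TMM scale with all 6 libraries, changes beyond a factor of 2 in either direction lie outside the intervals. Some smaller changes lie inside them. With spike-in totals, hsa_circ_0000711 stood at 0.69 (SE 0.29).

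circRNAs that are widely studied in other systems were looked up by identifier, in a list chosen with earlier results of these data known. Of 22 listed, 16 were in the file and 11 could be tested, of which 1 was called higher (circARID1A) and 1 lower (circFNDC3B). The median log2 fold change of the 11 was 0.02, beside 0.16 for all 608. hsa_circ_0000284 (circHIPK3), a circle from a single exon of a kinase gene, had 12207, 15078 and 10254 CPM in Sens and 5593, 10484 and 10434 CPM in Res. The groups overlapped through Res replicate 3 and replicate 2, and the log2 fold change was -0.49 (95% interval -0.96 to -0.02, edgeR adjusted p = 0.275). It passed without Res replicate 2 (-0.64, adjusted p = 0.0357) and when at least 5 counts in 3 libraries were required (-0.59, adjusted p = 0.0347).

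hsa_circ_0008285 (circCDYL), from a chromodomain gene, had 3380, 11582 and 9399 CPM in Sens and 5932, 11199 and 6894 CPM in Res. Its Sens replicate 1 was the lowest of the 6, and its log2 fold change was 0.03 (95% interval -0.59 to 0.65). hsa_circ_0007444 (circRHOBTB3) had a log2 fold change of -0.43 (95% interval -0.99 to 0.13), which passed without Res replicate 2 (-0.86, edgeR adjusted p = 0.039), and hsa_circ_0005615 (circNFATC3), from a gene for a calcium-regulated transcription factor, 0.02 (95% interval -0.44 to 0.47). On the TMM scale with all 6 libraries, the intervals of circCDYL, circRHOBTB3 and circNFATC3 all include 0 and lie within a factor of 2 in either direction. With spike-in totals, circCDYL stood at 0.55 (SE 0.36) and circNFATC3 at 0.56 (SE 0.29), so this limit was read on the TMM scale only.

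Others of the list had unadjusted differences that did not hold after adjustment. hsa_circ_0001772 (circRBM33), from an RNA-binding motif gene, had 9, 12 and 9 counts in Sens and 3, 6 and 6 in Res, with groups that did not overlap in CPM (log2 fold change -1.40, SE 0.48, edgeR adjusted p = 0.0913, from 0.0166 to 0.551 over the alternatives). It passed without Res replicate 3 (-1.68, adjusted p = 0.0443). hsa_circ_0001727 (circZKSCAN1), from a zinc finger gene, had 12, 17 and 13 counts in Sens and 32, 39 and 24 in Res (log2 fold change 0.74, SE 0.28, edgeR adjusted p = 0.132, from 0.0176 to 0.551 over the alternatives). It passed on the spike-in scale, at 1.25.

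hsa_circ_0001206 (circCRKL), from an adaptor protein gene, gave -0.46 (95% interval -1.23 to 0.31). hsa_circ_0000567 (circSETD3), from a histidine methyltransferase gene, and hsa_circ_0001649 (circSHPRH), from a gene for an E3 ubiquitin ligase, had 12 and 3 summed counts in Sens and 18 and 6 in Res. Their intervals, -1.16 to 1.48 and -1.59 to 2.65, leave room for a change of a factor of 2 in either direction. The 5 that were too sparse to test included hsa_circ_0001445 (circSMARCA5), with 3 counts in the Sens pulldown and 4 in the Res pulldown.

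**Figure D3:**
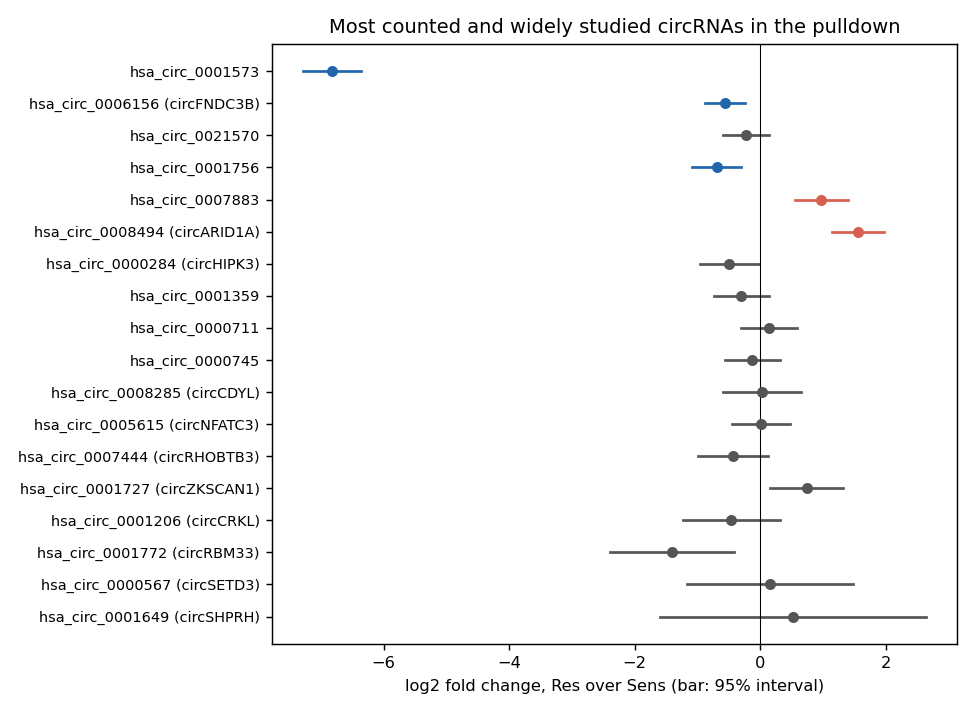
Log2 fold change, Res over Sens, in the IGF2BP2 pulldown (x axis, points) with its 95% interval from the edgeR fit (bars) for the 10 circRNAs with the highest mean CPM and the 11 tested circRNAs of the widely studied list, 18 in all, ordered by mean CPM. Coloured points passed the test, 3 lower and 2 higher, and the intervals widen towards the sparse circRNAs at the bottom.

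The IgG libraries, which share no sample with the pulldown comparison, showed how these circRNAs appeared without the IGF2BP2 antibody. Of the 12 lower circRNAs, 9 (75%) had counts in Sens IgG, and of the 17 higher circRNAs 2 (11.8%). Among all 608 tested the share was 21.5%, and in the top bin by CPM, which holds all 9 and both of these, it was 44.1%. In Res IgG the shares were 50% of the lower, 64.7% of the higher and 39.8% of all tested circRNAs. IgG libraries took 97.8% to 97.9% of their counts from spike-in transcripts in Sens and 93.5% to 93.8% in Res, against 7.51% to 12.4% in the pulldown. Per 1000 spike-in counts they held 21.8 to 22.3 circRNA counts in Sens and 66.2 to 69.4 in Res. They detected 407 to 441 circRNAs in Sens and 1039 to 1138 in Res. The IgG backgrounds of the lines were thus unequal, which limits the shares above and the contrasts with IgG below.

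**Figure D4:**
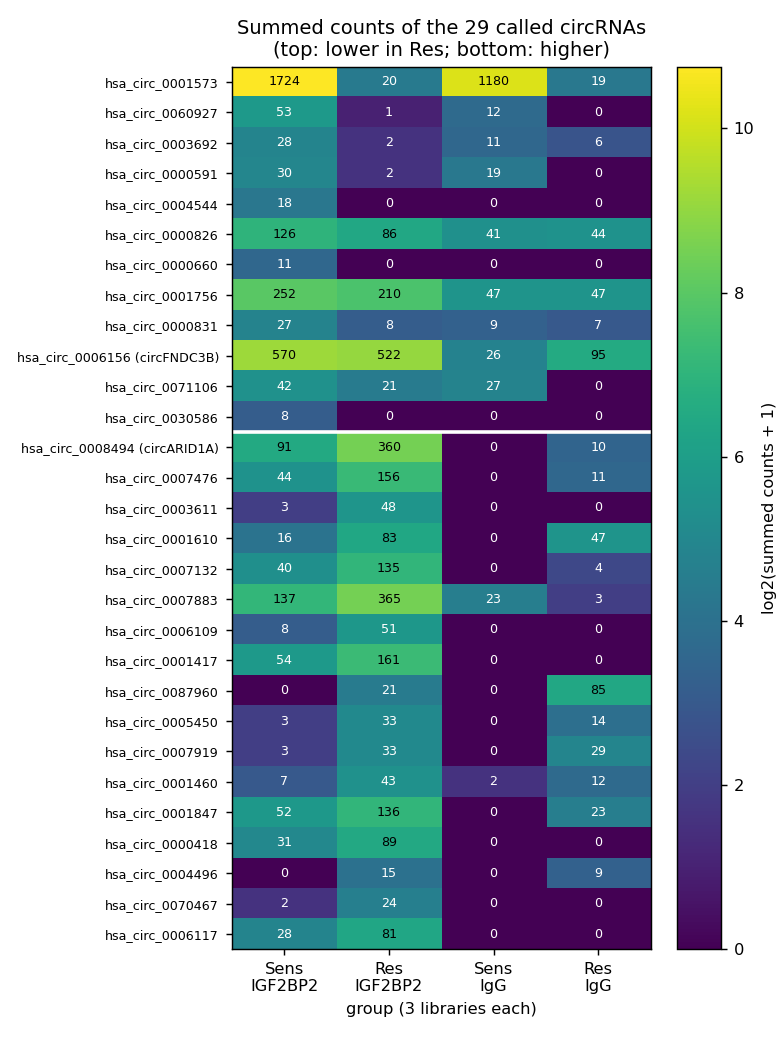
Summed counts over the 3 libraries of each group (columns: Sens and Res with the IGF2BP2 antibody, Sens and Res with IgG) for the 29 called circRNAs (rows), with colour showing log2(summed counts + 1) and the number in each cell the sum. The 12 lower circRNAs are above the white line and mostly have counts in Sens IgG, and the 17 higher ones below it mostly have 0 there.

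Several lower circRNAs were also lower in the Res IgG libraries. hsa_circ_0001573 had 1180 summed counts in Sens IgG and 19 in Res IgG, hsa_circ_0060927 12 and 0, hsa_circ_0000591 19 and 0, and hsa_circ_0071106 27 and 0. By contrast hsa_circ_0000826 had 41 and 44, hsa_circ_0001756 47 and 47, hsa_circ_0000831 9 and 7, and circFNDC3B 26 and 95. Fitted on the 6 IgG libraries alone, 5 of the 9 lower circRNAs with IgG counts passed the test, 4 lower and 1 higher in Res, as did all 11 of the higher circRNAs with IgG counts, 10 higher and 1 lower. Among these, the call of hsa_circ_0007132 rested on 4 counts, all in Res IgG replicate 2. The IgG fit called 88.7% of 899 tested circRNAs, 63.3% higher and 25.4% lower, so a call in IgG does not set a circRNA apart. Its estimate of spread was shared across circRNAs (infinite prior degrees of freedom).

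The difference between the pulldown change and the IgG change was tested in 1 fit of all 12 libraries. It is given for 18 of the 29 circRNAs, those with counts in each line over both antibodies and with each antibody over both lines. A circRNA can meet this rule with no count in a whole group, where the fitted difference depends on how the fit treats 0. The difference passed for 5 of the 18 (27.8%), 2 with the pulldown change above the IgG change and 3 with it below. Of these 5, hsa_circ_0001610 and hsa_circ_0001847 had no count in Sens IgG and hsa_circ_0071106 had none in Res IgG. Among the 292 of all tested circRNAs that met this rule, 42.5% passed, 11% above and 31.5% below. Over all 608 these shares were 20.4%, 5.26% and 15.1%. hsa_circ_0007883 rose in the pulldown while its summed IgG counts went from 23 to 3 (difference of log2 changes 3.97, SE 0.67, edgeR adjusted p = 9.62e-05). circFNDC3B fell in the pulldown while its IgG counts went from 26 to 95 (difference -2.23, SE 0.38, edgeR adjusted p = 9.62e-05). For hsa_circ_0001573 the changes in pulldown and IgG were -6.82 and -5.93, and the difference in the joint fit did not pass (-0.69, SE 0.41, edgeR adjusted p = 0.361).

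For 10 of the 13 leading or widely studied circRNAs without a pulldown call, the pulldown change was below the IgG change by this test. Over the 292 that met the rule above, the share was 31.5%. The widely studied list was chosen with earlier results of these data known, so this contrast does not show that its members stand out. Of the other 3 of the 13, hsa_circ_0001359 and circNFATC3 did not pass, and for circSHPRH, with no IgG count, the difference cannot be estimated. The summed IgG counts of the 10 were higher in Res, where the IgG libraries held 3860 to 6036 circRNA counts against 1960 to 2989 in Sens. circCDYL had 1 summed count in Sens IgG and 106 in Res IgG (difference -6.03, SE 0.80, edgeR adjusted p = 3.33e-06), and circRHOBTB3 had 1 and 55 (difference -5.58, SE 0.81, edgeR adjusted p = 6.74e-06). circRBM33, which had IgG counts in both lines, had 37 and 186 (difference -3.50, SE 0.49, edgeR adjusted p = 4.13e-06). circSETD3 had 1 and 89 (-5.65), circCRKL 0 and 23 (-6.24), circZKSCAN1 0 and 22 (-4.96) and hsa_circ_0021570 6 and 31 (-2.33).

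The other 3 of these 10 were circHIPK3 with 45 and 83 summed IgG counts (-1.14), hsa_circ_0000745 with 74 and 165 (-1.08) and hsa_circ_0000711 with 0 and 7 (-3.97). With column totals in place of TMM their adjusted p-values were 0.863, 0.938 and 0.0916, so these 3 calls rest on the scaling. hsa_circ_0000745 also lost its call without Sens IgG replicate 3 (adjusted p = 0.0633). circHIPK3 lost it without any 1 of Sens pulldown replicate 2, Res pulldown replicate 1, Sens IgG replicates 2 and 3 and Res IgG replicates 2 and 3 (adjusted p = 0.0773, 0.0651, 0.0671, 0.0982, 0.0696 and 0.0623). hsa_circ_0000711 lost it without Sens pulldown replicate 3, any Sens IgG replicate or Res IgG replicate 2 (adjusted p = 0.0532, 0.0749, 0.0682, 0.0907 and 0.0575). Where Sens IgG had no count, the fitted difference is no bound. circNFATC3, with 22 and 19 IgG counts, had a difference of 0.42 (SE 0.47, edgeR adjusted p = 0.864).

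The submitters' measure is the pulldown minus IgG level in counts per 1000000 circRNA counts (RPM), Res minus Sens, and a value below 0 marks decreased association. Here it was computed from the unscaled counts, without the authors' spike-in scaling, so the values may differ from theirs. It was below 0 for 9 of the 12 lower and 2 of the 17 higher circRNAs, beside 47.5% of all 608. The 3 lower circRNAs with a value above 0 were hsa_circ_0001573, at 36220 RPM, hsa_circ_0071106, at 1366 RPM, and hsa_circ_0000591, at 436 RPM, each with more counts in Sens IgG than in Res IgG. Per 1000 spike-in counts, hsa_circ_0001573 stood at 884.2 in the Sens pulldown and 11.1 in the Res pulldown. In IgG it stood at 3.37 in Sens and 0.0818 in Res, so its positive value depends on scaling to circRNA counts. The 2 higher circRNAs with a value below 0 were hsa_circ_0087960, at -4259 RPM, and hsa_circ_0007919, at -320.5 RPM, which had 85 and 29 counts in Res IgG and 0 in Sens IgG. These values contain the pulldown libraries of the main comparison and are not separate evidence of its direction.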

How the data were processed

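RNA immunoprecipitation with sequencing gave 12 libraries. The deposited values are unscaled whole-number counts for circRNAs and for ERCC spike-in transcripts. Per the labels' protocols the authors scaled to the spike-in with RUVSeq, which these counts do not carry. GRCh37 is the genome build that the submitters' processing notes name. The aligner, circRNA caller and counting rule are not given in the sources used here. The 57 ERCC rows, 7.51% to 12.4% of a pulldown library, entered neither library sizes nor tests.

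The 6 pulldown libraries were fitted in edgeR 4.0.16 (R 4.3.3; TMM on all circRNA counts, quasi-likelihood test, adjusted p under 0.05; prior degrees of freedom 21.0). Alternatives used DESeq2 1.42.0, limma 3.58.1 (voom), other scalings, filters and libraries left out. Differences between pulldown and IgG changes came from an edgeR fit of 12 libraries. The fit was also run on simulated counts, and as the outcome is not reported here, no result rests on it. Named circRNAs were those called without overlap, at most 12 per direction, the 10 with the highest CPM and a list of 22. The 5 higher circRNAs beyond the 12 fall outside this rule and were named after their values were seen. Members and lists were chosen with earlier results of these data known. The files do not pair identifiers with host genes, and 0 of them matched the gene table used here. Published names are background and entered no test. Coordinates and sequences are not reported here.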

Additional observations from a re-analysis of the deposited data

Results flagged for a closer look

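For 15 named circRNAs, the change between lines differed between the IGF2BP2 and the IgG libraries by the test of that difference (edgeR, 12 libraries, adjusted p under 0.05). Among circRNAs called in the pulldown, the difference of log2 changes, pulldown minus IgG, was 3.97 for hsa_circ_0007883, 4.85 for hsa_circ_0071106, -2.23 for hsa_circ_0006156 (circFNDC3B), -4.86 for hsa_circ_0001610 and -4.80 for hsa_circ_0001847. Among those not called there, it was -6.24 for hsa_circ_0001206, -6.03 for hsa_circ_0008285, -5.65 for hsa_circ_0000567, -5.58 for hsa_circ_0007444, -4.96 for hsa_circ_0001727, -3.97 for hsa_circ_0000711, -3.50 for hsa_circ_0001772, -2.33 for hsa_circ_0021570, -1.14 for hsa_circ_0000284 and -1.08 for hsa_circ_0000745.

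hsa_circ_0001610, hsa_circ_0001847, hsa_circ_0001206, hsa_circ_0001727 and hsa_circ_0000711 had no count in Sens IgG and hsa_circ_0071106 had none in Res IgG, so their fitted values depend on how the fit treats 0 and are no bounds. All but hsa_circ_0000284, hsa_circ_0000711 and hsa_circ_0000745 kept call and direction with column totals, with spike-in totals, with the replicate block and without each of the 12 libraries, with adjusted p-values up to 0.0414. Groups of 3 libraries are too small for a test of single outlying libraries.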

How the results depend on the processing

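All 29 calls kept their direction under the 17 alternatives, where each could be tested, and 7 kept their call in all of them. Total calls (29; 17 higher, 12 lower) went to 19 with DESeq2 (9 higher), which gave 201 of 608 no adjusted p, to 49 with spike-in totals (43 and 6), to 14 with no scaling (11 and 3) and to 18 with no filter (5 lower). With libraries left out, they ranged from 8 to 30 (5 to 19 higher, 3 to 12 lower). The causes were not tested, and the fits with a library left out also had fewer libraries. No pairing by replicate number was seen: deviations of same-numbered libraries correlated at 0.083, -0.044 and 0.041. With counts this low, a weak pairing could go unseen. The replicate block gave 29 calls, 20 higher and 9 lower, 25 of them among the 29. Calls on the difference between pulldown and IgG changes went from 32 to 52 higher with column totals. Leaving out 1 of the 12 libraries gave 88 to 131 in all (23 to 37 higher, 65 to 95 lower), and IgG calls were 775 to 793 (555 to 567 higher, 216 to 227 lower). Res minus Sens over pulldown libraries, with 1 left out, was 526.3 to 2268 for circRNA counts, 228.8 to 645.8 for circRNAs detected, -11.5 to -11.0 percentage points for the 10 most counted and 2289 to 4359 for counts per 1000 spike-in counts. Left-out IgG libraries and hsa_circ_0001573 were chosen as alternatives after seeing the data.

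Signs turned only for named circRNAs that were not called. With spike-in totals these were hsa_circ_0021570 (0.29), hsa_circ_0000284 (0.084), hsa_circ_0001359 (0.23), hsa_circ_0000745 (0.41) and hsa_circ_0007444 (0.11), and with no scaling hsa_circ_0021570 (0.18), hsa_circ_0001359 (0.15), hsa_circ_0000745 (0.30) and hsa_circ_0007444 (0.040). With DESeq2, with column totals without hsa_circ_0001573, and with at least 5 and 10 counts, hsa_circ_0008285 went to -0.077, -0.12, -0.075 and -0.025, and hsa_circ_0005615 to -0.034, -0.13, -0.091 and -0.038. hsa_circ_0005615 went to -0.0062 with the block and hsa_circ_0000711 to -0.0033 with column totals without hsa_circ_0001573. With 1 library left out, the ranges crossed 0 for hsa_circ_0000711 (-0.082 to 0.27), hsa_circ_0008285 (-0.35 to 0.33), hsa_circ_0000567 (-0.29 to 0.57), hsa_circ_0001649 (-0.069 to 1.42) and hsa_circ_0005615 (-0.10 to 0.20). The low counts limit precision: the median SE of the log2 fold change was 1.07 in the bottom bin by level.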
